A study of Mus musculus with 44 samples.

Results

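The translation initiation factor genes are the genes of the array whose probe set carries a single symbol beginning with Eif1 to Eif6, without the sex-linked copies Eif2s3x and Eif2s3y. They comprised 40 of the 8721 genes kept for analysis, and all 40 passed the filter on low values, which needed at least 1 array above the median of its set. Each gene was read from its brightest probe set by mean, and 27 of the 40 genes had more than 1 of the 99 probe sets. Eif4g1, Eif2s1 and Eif1 were not analysed here.

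Initiation factors bring the ribosome to the start codon of a messenger RNA. The eIF4F complex, made of the cap-binding protein eIF4E, the scaffold eIF4G and the helicase eIF4A, prepares the 5′ end of the message, and the 4E-binding proteins hold eIF4E away from that complex until the kinase mTOR phosphorylates them. The factor eIF2 delivers the initiator tRNA as a GTP-bound complex, eIF2B recharges it, and 4 stress-responsive kinases shut it down by phosphorylation, while eIF3 holds the small ribosomal subunit and eIF1A, eIF5 and eIF5B select the start codon and join the subunits. Myc is known as a driver of protein synthesis, and Eif4e is a textbook target of it.

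Total RNA from Eµ-myc mice, in which the immunoglobulin heavy chain enhancer drives a Myc transgene and B cell lymphomas arise, was measured on 44 Affymetrix arrays, 43 labelled lymphoma and 1 labelled spleen. All 44 samples carry the transgene, and the labels give no age, sex or treatment. Whether each lymphoma is from a separate animal, and whether the spleen held lymphoma, is not stated, and p-values therefore measure the spread between these arrays. RNA came from frozen lymphoma tissue or from pellets of dissociated cells, with no label for the preparation of a given array.

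Values are log2 intensities per probe set, and 1 unit is a doubling. The arrays formed 2 sets with different overall levels: 36 lymphomas with the lower title numbers (column medians 6.21 to 6.45, set 1) and 7 lymphomas with the higher ones together with the spleen (6.85 to 7.01, set 2). Levels are therefore compared within a set, and centred values are values minus the lymphoma mean of the set. Of 8 measured pan B cell markers, 5 lay above the set median in all 43 lymphomas. The spleen array had a pan B cell score, the mean centred value of the markers, of -1.27, within the lymphoma range of -3.05 to 0.83. Its erythroid score was 7.13 against a lymphoma range of -0.31 to 0.62, and its neutrophil score was 5.48 against -2.59 to 2.70. In such bulk samples fewer cells of a type and less RNA per cell cannot be told apart.

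The letters CACGTG, the palindromic E-box to which Myc and its partner Max are known to bind, were searched for in the 250 bases before each RefSeq start site (GRCm38.p6). A window was on hand for 32 of the 40 genes, and 7 of the 32 (21.9%) held the motif. The share was 6.86% over all 27025 genes of the promoter table and 710 of the 7070 kept genes that had a window. A gene counted if any of its windows held the motif, and genes with several start sites had several windows. Of the members' 45 windows 9 held it, beside 6.02% of all windows, and Eif4e and Eif5a also had windows without it. The motif was present in 4 of the 12 genes that rose with Myc and had a window, and in 3 of the other 20. The windows of those 4 genes and of Eif4a1, a helicase gene whose slope on Myc was negative, are printed because they show how the motif lies in genes on either side of 0, 5′ to 3′ with the motif in capitals:
Eif4e, chr3:138527018-138527267, plus strand: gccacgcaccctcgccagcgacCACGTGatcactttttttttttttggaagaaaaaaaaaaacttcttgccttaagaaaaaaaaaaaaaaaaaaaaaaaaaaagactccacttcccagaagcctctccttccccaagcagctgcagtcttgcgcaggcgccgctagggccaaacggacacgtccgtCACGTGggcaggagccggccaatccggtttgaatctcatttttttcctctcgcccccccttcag
Eif4h, chr5:134639410-134639659, minus strand: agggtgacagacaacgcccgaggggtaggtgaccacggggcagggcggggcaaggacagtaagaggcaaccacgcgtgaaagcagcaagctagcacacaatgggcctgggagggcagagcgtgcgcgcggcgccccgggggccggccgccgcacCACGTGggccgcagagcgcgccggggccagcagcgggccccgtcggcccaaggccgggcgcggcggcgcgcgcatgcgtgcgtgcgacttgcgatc
Eif5a, chr11:69921387-69921636, minus strand: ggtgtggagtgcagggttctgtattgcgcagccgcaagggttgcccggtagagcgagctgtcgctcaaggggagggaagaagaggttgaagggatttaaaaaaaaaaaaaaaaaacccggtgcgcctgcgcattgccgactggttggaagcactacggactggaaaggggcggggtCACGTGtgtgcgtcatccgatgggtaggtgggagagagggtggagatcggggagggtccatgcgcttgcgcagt
Eif1b, chr9:120492356-120492605, plus strand: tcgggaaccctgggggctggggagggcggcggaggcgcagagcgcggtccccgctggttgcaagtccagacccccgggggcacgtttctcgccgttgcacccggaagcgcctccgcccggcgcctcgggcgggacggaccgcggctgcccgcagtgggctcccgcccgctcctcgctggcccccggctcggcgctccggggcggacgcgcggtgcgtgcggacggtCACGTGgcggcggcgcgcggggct
Eif4a1, chr11:69672424-69672673, minus strand: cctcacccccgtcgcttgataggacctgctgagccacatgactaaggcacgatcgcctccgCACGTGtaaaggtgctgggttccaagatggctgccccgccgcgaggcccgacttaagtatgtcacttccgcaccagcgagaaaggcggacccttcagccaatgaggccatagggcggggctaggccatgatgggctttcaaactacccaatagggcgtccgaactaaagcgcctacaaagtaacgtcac
Eif4e held the motif at 228 and again at 64 bases before its start, counted from the motif's first base. It lay at 96 bases in Eif4h, 74 in this window of Eif5a, 24 in Eif1b and 189 in Eif4a1. The other 2 genes with it were Eif3f (68 bases) and Eif3k (44 bases), neither of which passed the test on Myc. A match of letters is a description of the sequence and not a measured binding site.

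Myc itself ranged in set 1 from 9.15 through a median of 10.54 to 11.44, and in set 2 from 9.90 through 11.22 to 11.78. The centred values spanned 2.29 log2 units, a 4.9-fold range, from lymphoma 88 (-1.31) to lymphoma 43 (0.98). Lymphomas 43, 58 and 35 were highest. The labels do not say whether the Myc probe set also reads the transgene. Each gene was regressed on Myc over the 43 lymphomas with the set as a covariate (limma, Benjamini-Hochberg adjustment over 8720 genes), and a slope is the change of the gene in log2 units for each log2 unit of Myc.

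With rising Myc, 15 of the 40 initiation factor genes rose and 0 fell at an adjusted p under 0.05 by limma. Over all genes tested 26.4% rose and 16.9% fell, against 37.5% and 0 of the members. The median slope was 0.10 for the members and 0.03 for all genes, and 33 of the 40 slopes were positive. At an unadjusted p under 0.05, 18 slopes were positive and 2, those of Eif4a2 and Eif2ak3, were negative. For each log2 unit of Myc the change was 1.34-fold in Eif3b, 1.26-fold in Eif4e and 1.10-fold in Eif5a.

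**Figure D1:**
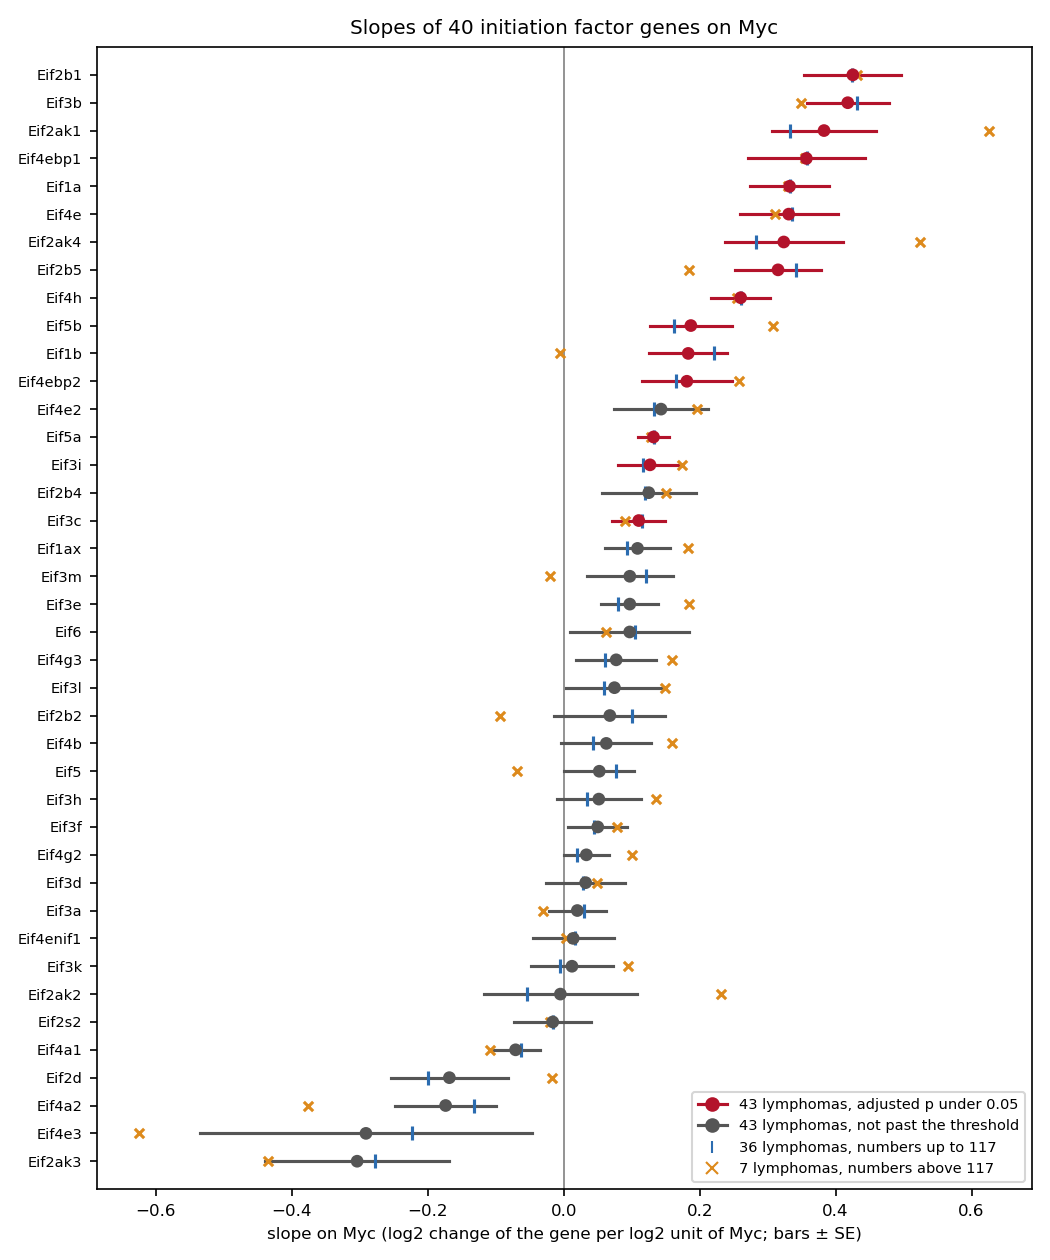
Slopes of the 40 genes on Myc (horizontal axis, log2 units of the gene for each log2 unit of Myc), with circles for the fit over 43 lymphomas and bars of 1 SE, red where the adjusted p was under 0.05. Blue ticks give the slope in the 36 lymphomas of set 1 and orange crosses that in the 7 of set 2. The 15 red circles all lie to the right of 0, and 7 grey ones lie to its left.

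The same regression was set beside markers of other cells, which moved with Myc. The T cell score fell as Myc rose (Pearson's r = -0.69, permutation p = 1e-05, adjusted p = 0.00035 over 35 relations; Spearman's rho = -0.63), with r = -0.66 in set 1, -0.85 in set 2 and -0.63 without the 2 lymphomas farthest from the median score. That p is the lowest possible with 100000 permutations. The macrophage score fell too (r = -0.49, permutation p = 0.00113, adjusted p = 0.0132; rho = -0.35, adjusted p = 0.14; r = -0.46 in set 1, -0.68 in set 2 and -0.40 without the 2 farthest). Of the 8 T cell markers 7 fell with Myc and 0 were above the set median in all lymphomas; of the 8 macrophage markers 6 fell and 3 were above it in all. With the macrophage, T cell, neutrophil and stroma scores as covariates, 6 members rose (Eif1a, Eif2ak1, Eif2b1, Eif3b, Eif4e and Eif5b) and 1 fell (Eif2ak3), against a background of 4.81% rising and 3.1% falling. The score of 14 measured G2/M genes, of which 9 rose with Myc, correlated with it at r = 0.46 (permutation p = 0.00209, adjusted p = 0.0167; rho = 0.44, adjusted p = 0.0312; r = 0.44 in set 1, 0.59 in set 2 and 0.48 without the 2 farthest), and with that score held fixed 9 members rose and 2 fell, against 16.2% and 12.1% of all genes. What part these cells or the cell cycle have in the slopes was not tested beyond these fits.

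Among the eIF4F genes and their cofactors 2 of 10 rose (20%, beside 26.4% of all genes), Eif4h and Eif4e. Eif4h, a cofactor that stimulates the eIF4A helicase, ran from 11.65 through a median of 12.08 to 12.63 in set 1 and from 12.38 through 12.89 to 12.97 in set 2. Lymphoma 35, among the highest in Myc, was its highest at a centred value of 0.52, and lymphoma 88, lowest in Myc, its lowest at -0.46. Its slope was 0.26 ± 0.04 (SE, n = 43, limma adjusted p = 9.30e-06), with 0.26 in set 1 and 0.25 in set 2. With the 4 other-cell scores held fixed the slope was 0.16 and no longer passed (adjusted p = 0.107).

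Eif4e, the cap-binding protein, ran from 9.87 through 10.86 to 11.55 in set 1 and from 11.29 through 11.65 to 12.17 in set 2. Lymphoma 58, with the highest Myc but one, was its highest and lymphoma 92 its lowest. Eif4e rose with Myc by 0.33 ± 0.07 (SE, limma adjusted p = 0.000301), with slopes of 0.34 and 0.31 in the sets and 0.35 (adjusted p = 0.0206) beside the other-cell scores. All 3 of its probe sets rose, as did all 3 of Eif4h. Its window printed above holds the motif at 2 places.

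The other cap-binding genes did not pass. Eif4e2, a relative of eIF4E known to repress translation, had a slope of 0.14 ± 0.07 (adjusted p = 0.0876). Eif4e3, another family member, had the widest spread of the 40 genes, with an SD within sets of 0.93, from 6.13 through 7.32 to 9.21 in set 1 and from 6.28 through 8.41 to 9.997 in set 2. Its slope of -0.29 ± 0.24 (adjusted p = 0.349) had an error nearly as wide as itself, and none of its 7 relations to marker or G2/M scores passed adjustment. Of the eIF4G family, Eif4g2 and Eif4g3 did not pass either, with slopes of 0.03 ± 0.03 and 0.08 ± 0.06 (adjusted p = 0.443 and 0.3).

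The helicase genes went the other way without passing the test. Eif4a1, the main eIF4A helicase, ran from 12.30 through 12.58 to 12.82 in set 1 and from 13.01 through 13.40 to 13.45 in set 2, with a slope of -0.07 ± 0.04 (adjusted p = 0.114). Its paralog Eif4a2 ran from 10.91 through 11.43 to 12.03 and from 11.45 through 12.15 to 12.38, with a slope of -0.17 ± 0.07 (adjusted p = 0.0554). Without the set covariate, which moved the median slope of all genes from 0.03 to 0.19, the slopes were 0.13 (Eif4a1) and 0.00144 (Eif4a2), and neither passed. The slope of Eif4a2 was also positive, at 0.04, beside a score of secretory genes described further on. The difference between the 2 slopes was 0.10 ± 0.08 (SE, n = 43, permutation p = 0.183, adjusted p = 0.183 over the 4 pairs tested), which did not separate them.

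**Figure D2:**
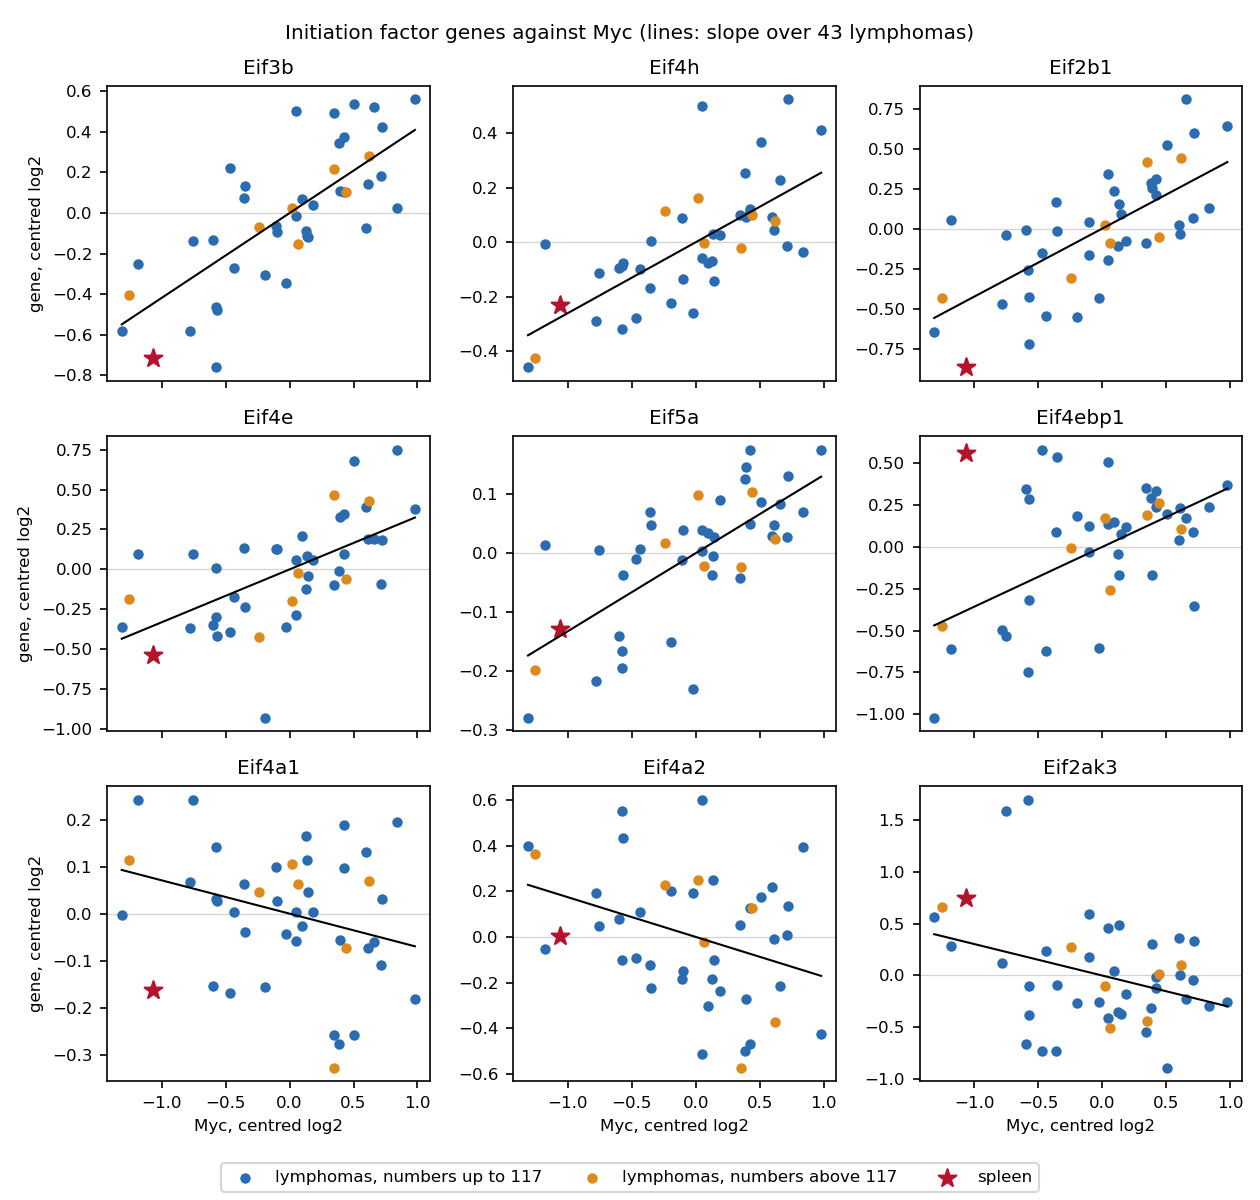
Centred log2 values of 9 initiation factor genes (vertical axes) against centred log2 Myc (horizontal axes), 1 point per array: blue for set 1, orange for set 2 and a red star for the spleen, which is not in the line's fit. Eif3b, Eif4h, Eif2b1, Eif4e, Eif5a and Eif4ebp1 slope upward and Eif4a1, Eif4a2 and Eif2ak3 downward, the last 3 without passing the test.

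The 2 measured genes of 4E-binding proteins, the inhibitors of eIF4E, both rose, where 26.4% of all genes did. Eif4ebp1 ran from 8.46 through 9.60 to 10.06 in set 1 and from 9.77 through 10.35 to 10.50 in set 2. Lymphoma 88, with the lowest Myc, was also lowest in Eif4ebp1, at a centred value of -1.02. The slope was 0.36 ± 0.09 (SE, limma adjusted p = 0.000902), the same to 2 decimals in each set, but 0.24 (adjusted p = 0.0901) without the 3 lymphomas lowest in Myc and 0.18 (adjusted p = 0.293) beside the other-cell scores. Eif4ebp1 was also lower where the macrophage score was high (r = -0.56, permutation p = 9e-05, adjusted p = 0.00158; rho = -0.59, adjusted p = 7e-04; r = -0.55 in set 1, -0.73 in set 2 and -0.67 without the 2 farthest), and what macrophage RNA adds to its slope was not tested beyond the fit with the other-cell scores. Eif4ebp2 had a slope of 0.18 ± 0.07 (adjusted p = 0.0245), which missed the threshold without the 2 lymphomas farthest from the median in Myc, those lowest in set 1 and in set 2. It passed in 8 of 16 alternative fits, and its slope was 0.10 beside the other-cell scores and 0.08 beside the G2/M score (limma adjusted p = 0.535 and 0.385).

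Eif4e and both inhibitor genes rose, and the tests of their differences did not separate them. The slope of Eif4e minus Eif4ebp2 was 0.15 ± 0.08 (SE, n = 43, permutation p = 0.0769, adjusted p = 0.154), that of Eif4ebp1 minus Eif4ebp2 was 0.18 ± 0.11 (permutation p = 0.125, adjusted p = 0.166) and that of Eif4e minus Eif4e2 was 0.19 ± 0.10 (permutation p = 0.068, adjusted p = 0.154). A p above the threshold does not show that the paralogs act alike.

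In the eIF2 branch, the genes for initiator tRNA delivery, Eif2s2 (eIF2 beta subunit, slope -0.02 ± 0.06) and Eif2d (an alternative tRNA carrier, -0.17 ± 0.09), did not pass (adjusted p = 0.843 and 0.109). Of the 4 eIF2B subunit genes 2 rose (50%, beside 26.4% of all genes). Eif2b1, which encodes the regulatory alpha subunit, ran from 8.12 through 8.85 to 9.66 in set 1 and from 9.27 through 9.65 to 10.15 in set 2. Its slope of 0.43 ± 0.07 (adjusted p = 9.37e-06 by limma) was the highest of the 40, with 0.42 in set 1 and 0.43 in set 2, and 0.29 (adjusted p = 0.0495) beside the other-cell scores.

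Eif2b5, which encodes the catalytic epsilon subunit, ran from 8.89 through 9.65 to 10.14 and from 10.21 through 10.59 to 10.83. Its slope was 0.32 ± 0.06 (adjusted p = 0.000123), with 0.34 in set 1 and 0.19 in set 2. Beside the other-cell scores the slope was 0.15 and no longer passed (limma adjusted p = 0.223). The beta and delta subunit genes had slopes of 0.07 ± 0.08 (Eif2b2, adjusted p = 0.525) and 0.13 ± 0.07 (Eif2b4, adjusted p = 0.143). Whether the subunits differ in slope was not tested.

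The 4 eIF2 kinase genes did not move as a group. Eif2ak1, the heme-regulated kinase HRI, ran from 7.44 through 8.32 to 8.95 in set 1 and from 8.20 through 8.94 to 9.58 in set 2, with a slope of 0.38 ± 0.08 (adjusted p = 0.000118) that was 0.33 in set 1 and 0.63 in set 2. Eif2ak4, the amino acid sensing kinase GCN2, ran from 6.30 through 7.22 to 7.85 and from 7.41 through 8.37 to 8.69, with a slope of 0.32 ± 0.09 (adjusted p = 0.00244) that missed the threshold without the 2 lymphomas farthest in Myc. The slope of Eif2ak4 passed in 11 of 16 alternative fits. Eif2ak2, the double-stranded RNA sensor PKR, ran from 6.55 through 7.47 to 8.82 and from 7.67 through 8.12 to 8.46 and had a slope of -0.00 ± 0.11 (adjusted p = 0.978). Its highest lymphoma was 59, at a centred value of 1.36, and its r with a score of 5 interferon response genes, chosen after the data were seen, was 0.52, and 0.23 without the 2 lymphomas farthest in that score, so it rests on them.

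Eif2ak3, the kinase PERK of the endoplasmic reticulum, had the steepest negative slope of the 40, though its adjusted p was above that of Eif4a2. It ran from 8.02 through 8.81 to 10.61 in set 1 and from 9.11 through 9.63 to 10.28 in set 2, and lymphomas 78 (centred 1.70) and 75 (1.59) stood above the rest at centred Myc below the set mean. The slope was -0.30 ± 0.13 (SE, n = 43, limma adjusted p = 0.0641), with -0.28 in set 1 and -0.44 in set 2. It passed the threshold in 5 of 16 alternative fits: -0.56 (adjusted p = 0.0453) beside the other-cell scores, -0.47 (0.0117) beside the G2/M score, -0.34 (0.0233) beside the 3′ minus 5′ difference of control probe sets, -0.37 (0.0339) without 5 lymphomas that stood apart in marker scores, and -0.20 (0.045) for the mean of its probe sets. That mean takes in probe sets that averaged 4.15 and 4.09 in set 1 and lay above the set median in 0 of the 43 lymphomas. Alone, neither of them passed (limma adjusted p = 0.106 and 0.149 over 20379 probe sets). The slope of Eif2ak3 stayed negative in all 16 fits, from -0.56 to -0.08, and the adjusted p ranged from 0.0117 to 0.662. Pearson's r with Myc was -0.33 and Spearman's rho -0.20, as a description over 43 lymphomas. Eif4a1 fell in 2 of the 16 fits, beside the G2/M score (-0.12, adjusted p = 0.0134) and beside the control difference (-0.08, adjusted p = 0.0475), and Eif4a2 in none (lowest adjusted p = 0.0543).

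All 11 eIF3 subunit slopes were positive and 3 passed, those of Eif3b, Eif3c and Eif3i, so 27.3% rose beside 26.4% of all genes. Eif3b, a core scaffold subunit, ran from 10.36 through 11.12 to 11.68 in set 1 and from 11.44 through 11.87 to 12.13 in set 2. It had the smallest adjusted p of the 40 genes, with a slope of 0.42 ± 0.06 (limma adjusted p = 1.21e-06), 0.43 in set 1 and 0.35 in set 2, and 0.28 (adjusted p = 0.0331) beside the other-cell scores. Eif3c, another core subunit, ran from 11.72 through 12.04 to 12.36 and from 12.63 through 12.81 to 12.97 and had a slope of 0.11 ± 0.04 (adjusted p = 0.0186), which missed the threshold without the 2 lymphomas farthest in Myc. It passed in 9 of 16 alternative fits, and its slope was 0.01 beside the other-cell scores (limma adjusted p = 0.929). Eif3i had a slope of 0.13 ± 0.05 (adjusted p = 0.0242), which missed the threshold in set 1 alone (adjusted p = 0.061) and with the mean of its probe sets (0.0552), and its other probe set did not pass (0.06 ± 0.04, adjusted p = 0.218). The other 8 slopes lay between 0.01 (Eif3k) and 0.10 (Eif3m, adjusted p = 0.217), with Eif3e at 0.10 too (adjusted p = 0.0554). The scaffold subunit Eif3a was among the steadiest of the 40 genes, with an SD within sets of 0.15 and a slope of 0.02 ± 0.04.

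Of the 7 genes listed under start codon selection and subunit joining 4 rose (57.1%, beside 26.4% of all genes). The list also takes in Eif5a, 1 of the 4, and Eif6, whose roles given below are others. Eif5a, the factor that carries the modified amino acid hypusine and helps ribosomes through difficult stretches, ran from 13.10 through 13.41 to 13.56 in set 1 and from 13.73 through 13.95 to 14.03 in set 2. It varied least of all 40 genes, with an SD within sets of 0.11, and yet rose by 0.13 ± 0.02 (adjusted p = 1.58e-05), the same in each set to 2 decimals. Its second probe set rose too, by 0.25 ± 0.05. Beside the other-cell scores the slope of the used probe set was 0.09 and no longer passed (limma adjusted p = 0.104).

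Eif1a, which encodes a scanning factor, ran from 9.08 through 9.81 to 10.37 and from 10.28 through 10.61 to 11.15. Its slope was 0.33 ± 0.06 (adjusted p = 1.99e-05) in the used probe set and 0.11 ± 0.06 (adjusted p = 0.204 over 20379 probe sets) in its other one, so its probe sets disagree. Eif1b, a close relative of the start codon factor eIF1, ran from 9.11 through 9.77 to 10.23 and from 10.32 through 10.44 to 10.85, with a slope of 0.18 ± 0.06 (adjusted p = 0.00875) that was 0.22 in set 1 and -0.00499 in set 2. Eif5b, the GTPase of subunit joining, ran from 8.62 through 9.33 to 10.01 and from 9.50 through 9.84 to 10.21, with a slope of 0.19 ± 0.06 (adjusted p = 0.0108) that missed the threshold without the 2 lymphomas farthest in Myc. The slope of Eif5b passed in 10 of 16 alternative fits. Eif1ax, Eif6, which keeps the ribosomal subunits apart, and Eif5, which triggers GTP hydrolysis by eIF2, did not pass, with slopes of 0.11, 0.10 and 0.05.

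**Figure D3:**
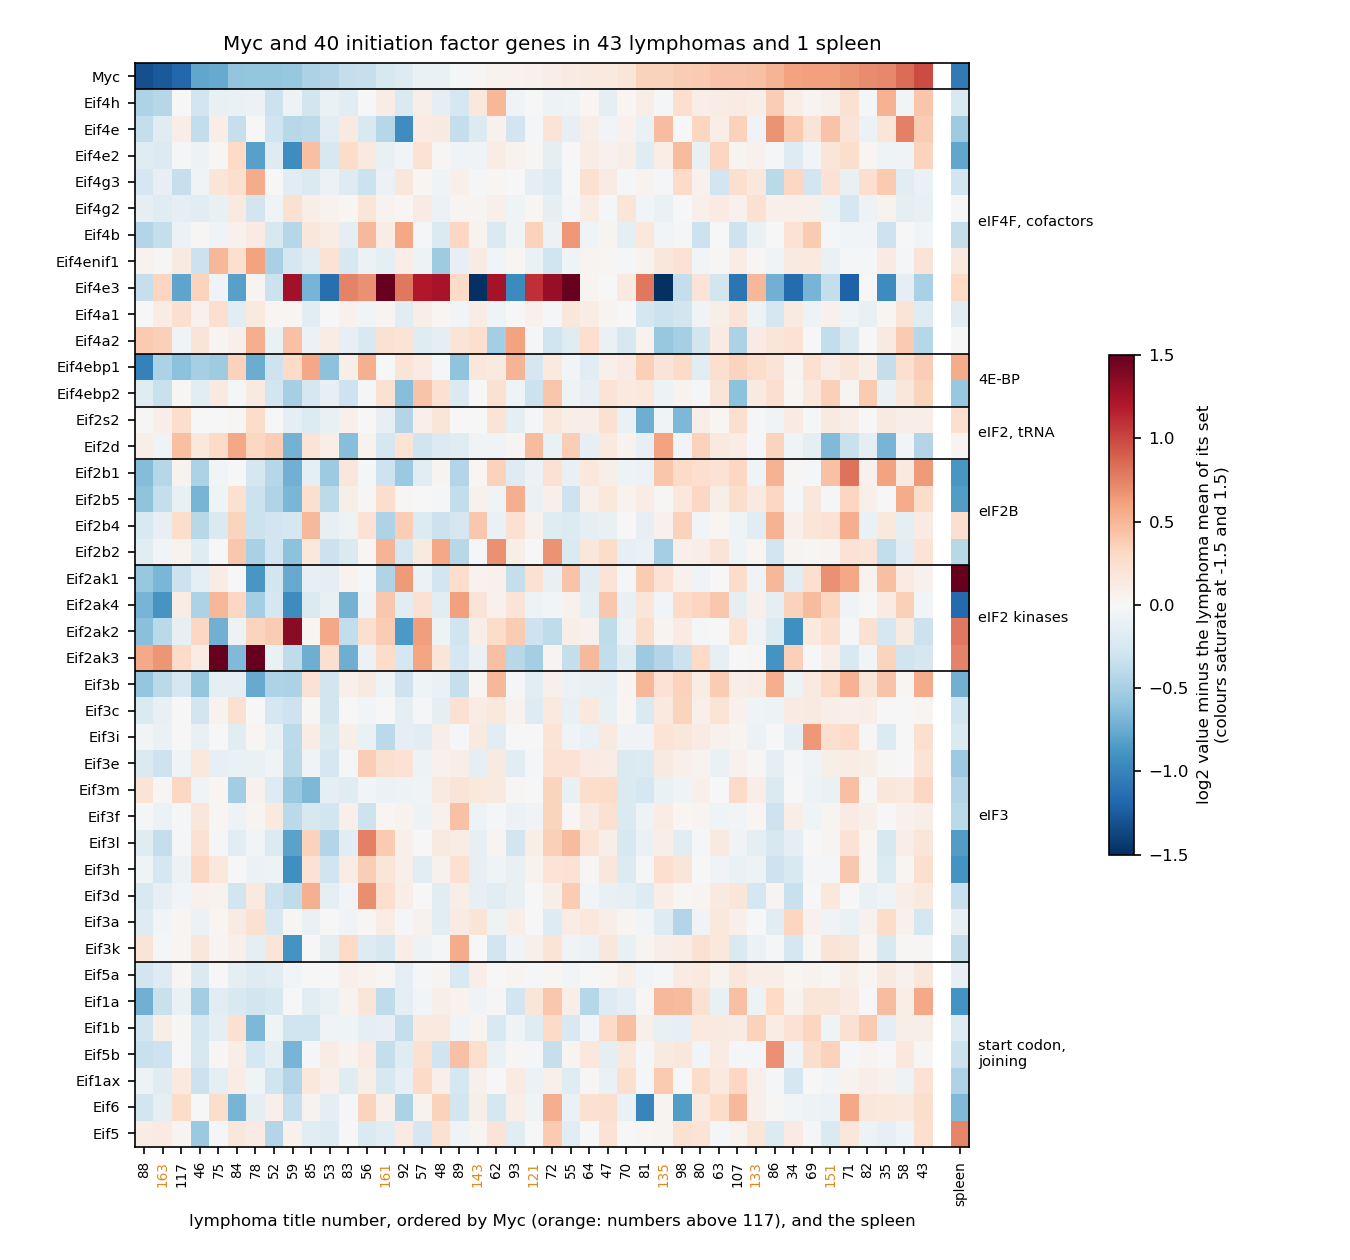
Centred log2 values of Myc and the 40 genes (rows, by role) in 43 lymphomas ordered from lowest to highest Myc and in the spleen (last column), with colours that saturate at 1.5 units on either side of the set mean. The Eif2b1, Eif3b and Eif1a rows are mostly blue on the left and red on the right, while Eif4e3 varies most and without that order.

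Across probe sets, 32 of the 99 of these genes rose and 0 fell, where 21.5% and 11.8% of all 20379 tested did. In 4 of the 27 genes with several, every probe set rose, and 4 genes (Eif1ax, Eif2s2, Eif4e2 and Eif4g2) had a rising probe set although the one used did not pass. For Eif1ax the difference was wide, 0.11 ± 0.05 in the used probe set and 0.42 ± 0.09 in the other. Without the set covariate 32 members rose and 0 fell, with 46.6% of all genes rising and 6.87% falling. In the 7 lymphomas of set 2 alone 0 rose and 0 fell by limma (0.195% and 0.367% of all genes did). No member's slope differed between the sets by a limma interaction test (0 at an unadjusted p under 0.05), where 14 of 8720 genes differed. With 7 lymphomas in set 2 this does not show that the slopes are alike in the sets. One further score, of 7 secretory and plasma cell genes chosen after the data were seen, fell as Myc rose (r = -0.80). With it as a covariate 0 members rose and 0 fell, where 0.229% and 0.0688% of all genes did. The median slope in that fit was 0.05 for the members and 0.01 for all genes. What lies behind the loss of calls was not tested, and Myc and this score cannot be told apart here.

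The members followed one another only loosely. Their mean pairwise Pearson correlation over the 43 lymphomas was 0.12, against 0.0085 for all genes, and that of the 11 eIF3 subunits was 0.26. Without the 5 lymphomas that stood apart in marker scores these were 0.08 and 0.17. Of 780 pairs 27 reached r = 0.6 and 2 reached -0.6. The closest pair was Eif3l with Eif3h (r = 0.83, rho = 0.80, and r = 0.77 without those 5 lymphomas), followed by Eif3l with Eif3e (0.83) and Eif3b with Eif2b1 (0.82). Eif3l, Eif3h and Eif3e did not pass on Myc, whereas Eif3b, Eif2b1, Eif4h and Eif5a, whose pairs had r from 0.71 to 0.82, all rose with it. The negative pairs were Eif4a2 with Eif1a (-0.63) and Eif4ebp1 with Eif2ak3 (-0.62). These correlations share arrays and normalization and are a description.

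In the spleen, 2 of the 40 genes were higher than in the lymphomas and 5 lower at an adjusted p under 0.05 (limma over 8721 genes, the 1 spleen assumed to vary as the lymphomas do), where 7.6% and 5.79% of all genes were. The median difference was -0.31 for the members and -0.16 for all genes. The spleen lay above the centred range of the 43 lymphomas in 2 members, where 9.28% of all genes did, and below it in 7, where 13.6% did. With equal column medians, which moved the median difference of all genes to -0.29, 1 member was higher and 7 lower, beside 6.88% and 8.89% of all genes. Without the set covariate, which moved it to 0.41, 2 were higher and 0 lower, beside 12.9% and 0.47%.

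Eif2ak1 was at 10.58 in the spleen and at most 9.58 in the lymphomas of the same set, a difference of 1.69 ± 0.38 (SE, adjusted p = 0.0015). The kinase is known from red cell precursors, where it matches globin synthesis to heme, and all 7 erythroid markers measured were higher in the spleen, by a median of 6.94, with 4 of the 7 above the set median in none of the lymphomas. The part of those cells in its level was not tested. In the 7 lymphomas of set 2 and the spleen alone, Eif2ak1 missed the threshold (adjusted p = 0.0535). Eif5 was at 12.51 in the spleen against 11.56 through 11.82 to 11.96 in the lymphomas of set 2, a difference of 0.73 ± 0.21 (adjusted p = 0.0133) that did not pass with equal column medians.

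Over the 11 eIF3 subunits measured, the median spleen difference was -0.40, against -0.16 for all genes. Eif3h, Eif3e and Eif3l varied together over the 43 lymphomas (pairwise r from 0.76 to 0.83), so in 1 spleen they are not 3 separate observations. Eif3h was at 11.81 in the spleen against 12.45 through 12.67 to 12.96 in set 2 (difference -0.90 ± 0.24, adjusted p = 0.00939), although lymphoma 59 of set 1 lay as low, at a centred value of -0.92. Eif3e was at 13.07 against 13.30 through 13.62 to 13.85 (-0.54 ± 0.17, adjusted p = 0.0307), and Eif3l at 11.28 against 11.77 through 12.16 to 12.51 (-0.84 ± 0.28, adjusted p = 0.0403). For these 3 genes the spleen lay below all 7 lymphomas of its set. Eif2ak4 was at 7.12 in the spleen (-1.16 ± 0.39, adjusted p = 0.0397) and Eif1a at 9.77 (-0.90 ± 0.30, adjusted p = 0.0428), each also below the 7 lymphomas. In set 2 and the spleen alone 4 members were lower and 1 higher, beside 2.69% and 6.7% of all genes. Eif3h was still lower there (adjusted p = 0.0201), while Eif3e, Eif3l, Eif2ak4 and Eif1a missed the threshold (adjusted p = 0.103, 0.0672, 0.125 and 0.117). With the mean of probe sets the differences of Eif3h (-0.25), Eif3l (-0.41) and Eif1a (-0.61) did not pass. For Eif3h and Eif3l every probe set added to that mean lay above the set median in 0 of the 43 lymphomas. The one added for Eif1a lay above it in all 43. What the added probe sets do to these differences was not tested.

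Members that rose with Myc did not all lie low in the spleen, where Myc was at 10.09 (difference from the lymphomas -1.07 ± 0.60, adjusted p = 0.239). Eif2b1 (8.84) and Eif2b5 (9.73) lay below the range of the 43 lymphomas without passing the test (-0.87 ± 0.38 and -0.84 ± 0.31, adjusted p = 0.12 and 0.0679). Eif3b was at 11.13 (-0.72 ± 0.35, adjusted p = 0.164). Eif4ebp1 was at 10.80, above the highest lymphoma of set 2 but within the centred range of all 43 (0.56 ± 0.40, adjusted p = 0.365). Neutrophil markers were higher in the spleen for 5 of 7 and stroma markers for 3 of 8, and their part in these differences was not tested.

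**Figure D4:**
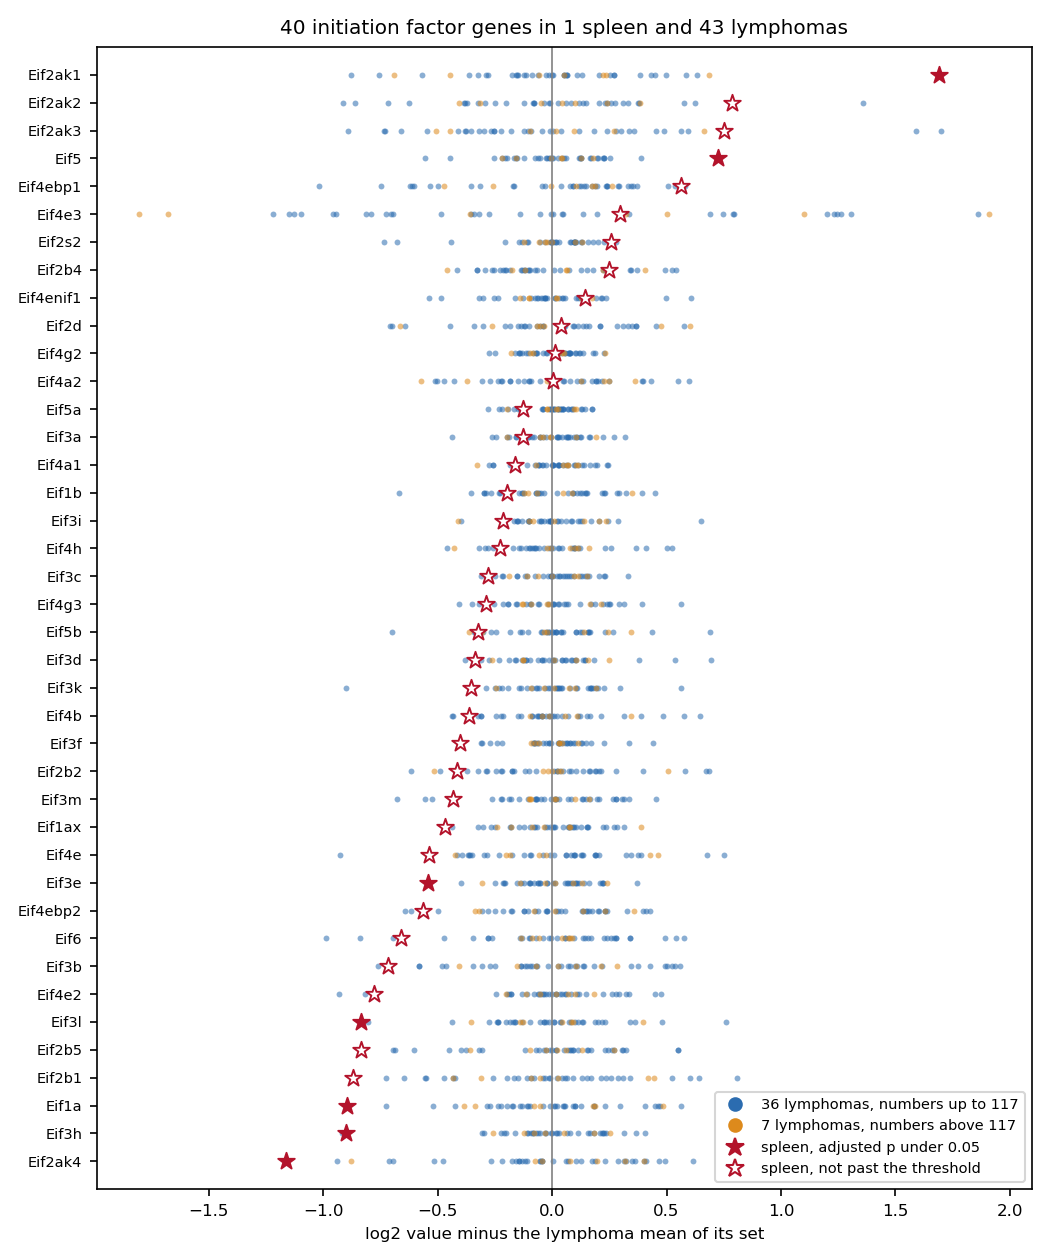
Centred log2 values (horizontal axis) of the 40 genes in the spleen (stars, filled where the adjusted p was under 0.05) and in the 43 lymphomas (blue points set 1, orange points set 2). Eif2ak1 and Eif5 stand to the right of all lymphomas, and Eif2ak4 and Eif1a to the left of them.

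Of 33 other translation genes measured among 39 listed, 10 (30.3%) rose with Myc and 1 fell, where 26.4% and 16.9% of all genes did. Beside the other-cell scores 2 rose (Rheb and Denr), where 4.81% of all genes did. By list, 11.1% of the elongation, 25% of the termination and recycling and 43.8% of the partner and control genes rose. Among elongation genes 1 of 9 rose, Eef2k, a kinase that slows elongation (0.49 ± 0.16, adjusted p = 0.0125). Of 8 termination and recycling genes Denr, a re-initiation factor (0.41 ± 0.08, adjusted p = 4.11e-05), and the recycling ATPase Abce1 (0.24 ± 0.05, adjusted p = 0.000584) rose. Of 16 partners and control genes 7 rose, led by Larp1, which binds messages of the translation machinery (0.25 ± 0.05, adjusted p = 4.97e-05), Rheb, the activator of mTOR (0.27 ± 0.06, adjusted p = 0.000172), and Ppp1r15b, which targets a phosphatase to eIF2 (0.19 ± 0.05, adjusted p = 0.0035). The gene that fell was Ppp1r15a, the stress-induced counterpart of Ppp1r15b (-0.26 ± 0.09, adjusted p = 0.0157). In the 1 spleen the median difference of the 33 genes was -0.26, against -0.16 for all genes. Ppp1r15a was at 12.21 there, a difference of 3.99 ± 0.38, and the stress factor Atf4 differed by 0.87 ± 0.25. What other cells of the spleen add to these differences was not tested. The spleen was lower in Dhps, an enzyme that makes the hypusine of eIF5A (-0.92 ± 0.29, adjusted p = 0.0263), and in the elongation factor gene Eef1b2 (-0.36 ± 0.10, adjusted p = 0.0162).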

How the data were processed

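RNA of 43 lymphomas and 1 spleen was measured on 1 Affymetrix array each. The deposited table holds log2 expression levels of probe sets, for which the authors used RMA and affy (versions not given), per the submitters' processing notes. Each set of arrays may have been normalized separately, which the labels do not state, so the set was a covariate. Of 22690 probe sets 64 were controls, 691 had several symbols, 1555 had none and 20380 had 1 and were used, for 12393 genes. Arrays have no read depth, and their number limits the precision.

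Slopes on Myc and the spleen difference were fitted with limma 3.58.1 in R 4.3.3 (eBayes with intensity trend, two-sided, Benjamini-Hochberg adjustment over all kept genes, threshold 0.05), and array weights used statmod 1.5.0. Correlations and pair differences used two-sided tests with 100000 permutations within sets. Of 8 listed pairs 4 could be tested. The named genes were Myc, the 12 members of highest moderated t, members of pairs, the 4 largest and 4 smallest SDs, members past the threshold in the spleen, and of the other translation genes the 3 highest and lowest t of each list. Other members are named by role. Members and lists were chosen with earlier results of these data known. Alternatives varied the set term, sets, filter, probe set choice, scaling, model settings, covariates and lymphomas left out. Those with the secretory score, without the 3 lymphomas lowest in Myc, the interaction, the fit of every probe set, and correlations of members without the lymphomas that stood apart were chosen after seeing the data. A lymphoma stood apart if its pan B cell score lay over 3 median absolute deviations below the median or at least 2 other marker scores lay as far above it, which held for 5. The fits were tested on simulated data in which only 100 genes were changed at each size. Slopes of 0.2 and 0.4 were recovered in 14% and 59% of these among 8720, and differences of 1 and 2 log2 units in the spleen in 28% and 81% among 8721. In the data 26.4% of genes rose and 16.9% fell with Myc, so the same adjustment was less strict there. The recovered shares are therefore not the power of the Myc fits in the data.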

Additional observations from a re-analysis of the deposited data

How the results depend on the processing

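Of the members' slopes on Myc under 16 alternatives, 33 newly passed the threshold and 57 kept their sign but no longer passed it. The sign differed in 53 of 640 values, 2 of them of members called in the report and 51 of 20 other members, and 0 of the 53 passed the threshold. Members rising (15) became 32 without the set term, 0 in set 2 alone, 6 beside the other-cell scores, 9 beside the G2/M score and 0 beside the secretory score. Members falling (0) became 1 without the lymphomas that stood apart, 1 with the mean of probe sets, 1 beside the other-cell scores, 2 beside the G2/M score and 2 beside the control difference. The slope of Eif1b was -0.00499 in set 2 alone and that of Eif3c -0.0268 beside the secretory score. Other translation genes rising (10) became 27 without the set term, where 46.6% of all genes rose, and 2 beside the other-cell scores, where 4.81% did. Those falling (1) became 0 without the set term, in set 1 alone and beside the other-cell scores. Spleen members higher (2) became 1 in set 2 alone and 1 with equal medians, and those lower (5) became 0 without the set term and 3 with the mean of probe sets, and the differences of Eif3e and Eif3l turned to 0.25 and 0.13 without the set term. The 4 pair differences kept their side of the threshold in set 1 alone and without the 2 lymphomas farthest in Myc. The cause of these changes was not tested. No paired analysis was possible because the title numbers are shared by no 2 groups. The single spleen, the 7 lymphomas of set 2 and the probe sets chosen limit the precision.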
